A study of Mus musculus with 11 samples.

Results

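Drd1 striatal projection neurons were examined in single-nucleus RNA sequencing of mouse cortex. A nucleus was taken as a Drd1 nucleus by its raw UMI counts, where a UMI is the molecular tag of a captured RNA molecule. It had 300 to 8000 detected genes, at most 5% of its UMIs in mitochondrial genes and at most 1 UMI of the excitatory neuron gene Slc17a7. It also had 4 or more UMIs of the striatal genes Rgs9 and Rarb together, 2 or more of Drd1, and more of Drd1 than of Drd2. These limits were met by 1027 of the 112539 nuclei that passed the limits on genes and mitochondrial share. The nuclei of the other striatal pathway, chosen by the same limits with Drd2 in place of Drd1, numbered 3850 and served as the comparison within each mouse.

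Striatal projection neurons are the GABA-releasing output cells of the striatum and fall into a pair of pathways. Cells of the direct pathway carry the D1 receptor, which raises cAMP when dopamine binds, and make the peptides substance P and dynorphin. Cells of the indirect pathway carry the D2 receptor, which lowers cAMP, together with an adenosine receptor and enkephalin. The tissue is labelled cortex, and no striatal tissue is named in the labels.

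The study asked how NF-κB signalling in microglia, the immune cells of the brain, acts in PS19 mice, which express human tau with the P301S mutation from the mouse prion promoter. The 11 mice, 1 library each and all labelled female (the methods name males for RNA sequencing), formed 4 groups. Ikbkb+/+ mice (n = 4, 9.8 to 10.85 months old) had no tau transgene. Ikbkb+/+;P301S+ mice (n = 3, 9.15 to 10.75 months) carried it with intact Ikbkb, the gene of the NF-κB activating kinase IKKβ. Ikbkb-/-;P301S+ mice (n = 2, 8.39 and 9.15 months) also lacked Ikbkb in cells with Cx3cr1-driven, tamoxifen-induced Cre, and IkbkbCA;P301S+ mice (n = 2, 9.8 and 10.85 months) expressed constitutively active IKKβ in those cells. The paper describes controls without Cre as littermates that carried the floxed alleles and also received tamoxifen. The litter of each mouse is not known here, and the ages above differ within and between groups. Cre was therefore aimed at microglia and not at the neurons described here. The mice belonged to a pair of breeding lines. The floxed Ikbkb line gave Ikbkb+/+ replicates 1 and 2, Ikbkb+/+;P301S+ replicates 1 and 2 and both Ikbkb-/-;P301S+ mice, and the IkbkbCA line gave the rest.

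The mice gave between 34 and 217 Drd1 nuclei each. Ikbkb+/+ replicates 1 to 4 gave 68, 95, 34 and 100, and Ikbkb+/+;P301S+ replicates 1 to 3 gave 65, 97 and 115. The Ikbkb-/-;P301S+ mice gave 95 and 63, and the IkbkbCA;P301S+ mice gave 217 and 78. The fewest nuclei and the lowest summed depth belonged to Ikbkb+/+ replicate 3 (353179 UMIs) and the most to IkbkbCA;P301S+ replicate 1 (2383317 UMIs). The median Drd1 nucleus had 11065 UMIs, against 9972 in Drd2 nuclei and 7039 in all nuclei kept. The median per mouse was between 9859.5 and 11959 in all groups but Ikbkb-/-;P301S+, where it was 13160 and 14563. A doublet caller marked 111 Drd1 nuclei (10.8%) and 389 Drd2 nuclei (10.1%), and 8.42% of all nuclei kept. The highest scores of each library were marked, up to a share set beforehand at 0.8% per 1000 barcodes. The 8.42% is therefore a setting and not a measured rate. Among the nuclei kept, 1556 barcode sequences occurred in more than 1 library, out of 110968 distinct ones. Of the Drd1 nuclei 32 carried such a barcode, and 0 barcodes belonged to Drd1 nuclei in both of their libraries.

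The limits on Drd1 and Drd2 set the levels of these genes, which are given as a description. Levels are CPM, the UMIs of a gene divided by a total of UMIs and multiplied by 1e+06. For Drd1 and Drd2 nuclei of a mouse, the total is that of the genes passing the low-count filter. It is scaled by a library size factor (TMM, 0.962 to 1.05 for Drd1 nuclei). For other nuclei, nuclei pooled over mice and groups of nuclei, the total is all their UMIs. Drd1 (chr13:54051183-54055705, minus strand, build GRCm38, the same as mm10) ranged from 165 to 249 CPM in Drd1 nuclei and from 0.634 to 4.00 CPM in Drd2 nuclei. Drd2 (chr9:49340627-49408177, plus strand) ranged from 0 to 4.40 CPM in Drd1 nuclei and from 557 to 805 CPM in Drd2 nuclei. Most Drd1 nuclei lay at the limit: 724 had exactly 2 Drd1 UMIs, 303 had 3 or more, the highest count was 9, and 26 held a Drd2 UMI as well. The Rgs9 and Rarb limit mattered less, since the median nucleus had 35 of these UMIs, 7 nuclei had exactly 4, and 10 nuclei that met all other limits had 3.

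Just outside the Drd1 limit lay 1935 nuclei that met the striatal limits with exactly 1 Drd1 UMI and no Drd2 UMI. Their pathway genes were at levels close to those of nuclei with exactly 2. Pooled over mice, Ebf1 was at 286 CPM just inside and 273 CPM just outside, Tac1 at 79.2 and 70.6, Pdyn at 28.5 and 28.9, and Adora2a at 0.969 and 1.11. The nuclei just outside also differed: against Drd2 nuclei 17 of 20 identity genes were called lower there, where 8.98% of all genes tested were, and 11 in Drd1 nuclei, where 5.15% were. A further 4761 nuclei met the striatal limits with neither receptor detected. These nuclei just outside the limit were added to the analysis after the data had been seen, and results in them stand beside those in Drd1 nuclei.

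The label of striatal projection neurons was checked against genes that the limits did not use. Adcy5, the adenylyl cyclase of striatal dopamine signalling, ranged from 681 to 1110.3 CPM in Drd1 nuclei and from 84.5 to 260 CPM in all other nuclei kept. A list of 20 identity genes of these neurons, such as Ppp1r1b, Pde10a, Bcl11b and Foxp1, summed to between 15125 and 22763 CPM in Drd1 nuclei and to between 5704 and 8570 CPM in the other nuclei, which still included the remaining striatal neurons. Glial markers were lower in Drd1 nuclei than in other nuclei of the libraries. The 8 oligodendrocyte markers summed to 155 to 505 CPM in Drd1 nuclei against 700.3 to 1555 CPM, the 8 astrocyte markers to 65.5 to 510 CPM against 769 to 1175 CPM, and the 9 microglial markers to 16.4 to 92.2 CPM against 76.9 to 232 CPM. The sums of the 10 excitatory neuron markers overlapped, at 801 to 1200.3 CPM against 896 to 1099.6 CPM, with Foxp2 alone at 625 to 1030 CPM. Within a mouse the sum was lower in Drd1 nuclei, except in Ikbkb+/+ replicate 1 and Ikbkb+/+;P301S+ replicate 2, where it was higher. The highest astrocyte and microglial sums were both in Ikbkb+/+ replicate 4. Tmem119, a defining marker of microglia, was at 0 in 7 of the 11 mice and Slc7a10, one of astrocytes, in 5, and no marker of these 3 lists was at 0 in every mouse. The part of these markers in the results below was not tested.

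Drd1 nuclei made up 0.367% to 2.01% of the nuclei of a mouse. The shares of all nuclei kept were 0.720%, 0.939%, 0.367% and 1.04% in Ikbkb+/+ replicates 1 to 4, and 0.583%, 0.795% and 1.06% in the Ikbkb+/+;P301S+ mice. They were 0.907% and 0.856% in the Ikbkb-/-;P301S+ mice and 2.01% and 0.696% in the IkbkbCA;P301S+ mice. The groups overlapped, with IkbkbCA;P301S+ replicate 1 above every other mouse. The amount of striatal tissue in each library is not known, so the share among Drd1 and Drd2 nuclei was taken as well. It was 23.4%, 22.7%, 19.7% and 21.5% in Ikbkb+/+, 14.9%, 14.9% and 23.8% in Ikbkb+/+;P301S+, 24.2% and 20.7% in Ikbkb-/-;P301S+, and 21.5% and 30.5% in IkbkbCA;P301S+. The pair of low values belonged to Ikbkb+/+;P301S+ replicates 1 and 2, while replicate 3 was higher than any Ikbkb+/+ mouse.

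No difference in either share between genotypes passed the test. Exact two-sided permutation tests of the group means were run for 4 contrasts and both shares and adjusted over the 8 tests. For the share of Drd1 and Drd2 nuclei, Ikbkb+/+;P301S+ was at 17.9% ± 5.10 (SD, n = 3) and Ikbkb+/+ at 21.8% ± 1.65 (SD, n = 4), a difference of -3.94 points (exact permutation p = 0.257, adjusted p = 0.8). Ikbkb-/-;P301S+ mice were 4.57 points above Ikbkb+/+;P301S+ mice (exact p = 0.3) and IkbkbCA;P301S+ mice 8.14 points above them (exact p = 0.3), where 2 mice against 3 cannot give a p under 0.1, so that these tests could not have passed. The test of 3 against 4 mice cannot give an exact p under 0.0286. Adjusted over the 8 tests, it could not have passed either. The 7 mice with the tau transgene differed from Ikbkb+/+ mice by -0.305 points (exact p = 0.945). For the share of all nuclei the adjusted p was between 0.81 and 0.945. Because deeper nuclei pass a limit of 2 UMIs more easily, the shares were also taken after thinning every nucleus to 5000 UMIs, which left out 13903, 14528, 7066 and 8727 shallower nuclei in the groups in the order above, of which 3, 7, 1 and 3 were Drd1 nuclei. The order then turned for the Drd2-based share, to 0.646 points between Ikbkb+/+;P301S+ and Ikbkb+/+ and to -1.73 points between Ikbkb-/-;P301S+ and Ikbkb+/+;P301S+. The 8.14 points of IkbkbCA;P301S+ shrank to 1.95 after thinning, and to 2.38 where a Drd1 nucleus had 3 or more Drd1 and no Drd2 UMIs. For the share of all nuclei, the difference between Ikbkb+/+;P301S+ and Ikbkb+/+ grew from 0.0449 to 0.262 points after thinning (exact permutation p = 0.0857, adjusted p = 0.57). No order is therefore read from these shares.

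**Figure D1:**
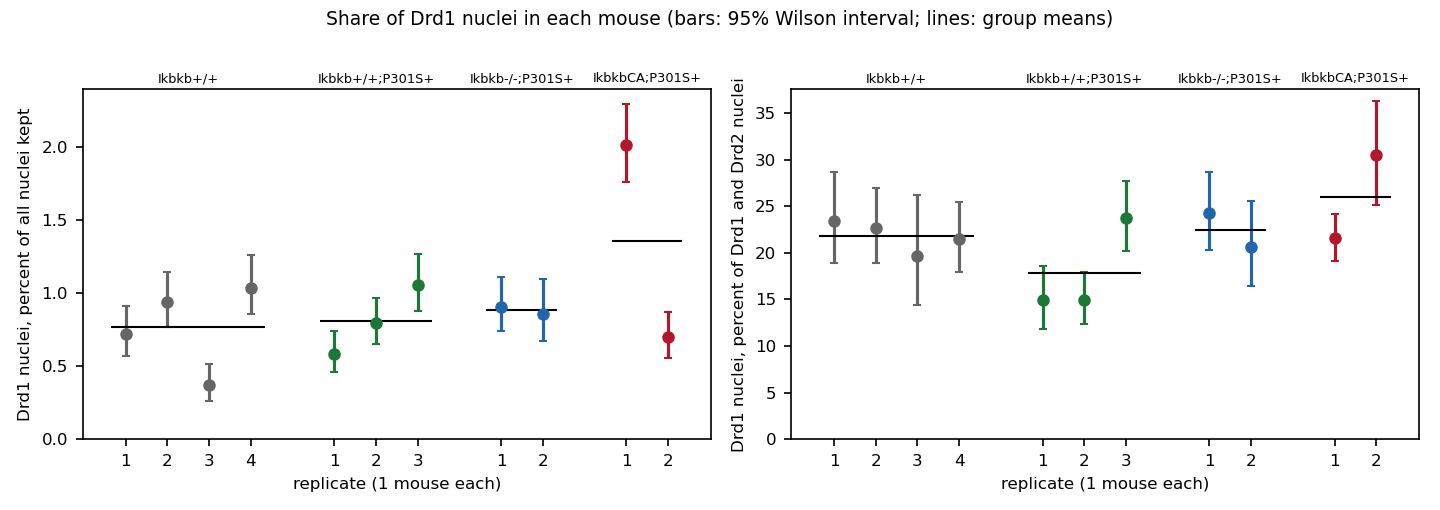
Share of Drd1 nuclei in each mouse, as percent of all nuclei kept (left) and of Drd1 and Drd2 nuclei together (right), by genotype and replicate. Points are mice, bars are 95% Wilson intervals, which cover counting error only, and horizontal lines are group means. IkbkbCA;P301S+ replicate 1 reaches 2.01% on the left, and on the right the mice lie between 14.9% and 30.5% with overlapping groups.

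The transcriptome of Drd1 nuclei was then set against that of the Drd2 nuclei of the same mice. UMIs were summed per mouse and nucleus type, and edgeR's quasi-likelihood test was run with the mouse as a block, over all genes other than those of the limits. P-values were adjusted after Benjamini and Hochberg, and genes are called here where the adjusted p is under 0.05 and the log2 fold change lies beyond 0.1 in either direction. Of 11005 genes tested 1248 were called (11.3%), with 681 higher in Drd1 nuclei (6.19%) and 567 lower (5.15%). Without a filter on low counts the balance turned, with 615 called higher and 891 lower of 23148. With the nuclei just outside the Drd1 limit in place of Drd1 nuclei, 2167 of 11516 genes were called (18.8%), with 1133 higher (9.84%) and 1034 lower (8.98%), and 1017 genes were called in both with the same sign. This was 81.5% of the calls in Drd1 nuclei and 46.9% of the calls just outside. Of the 1248 genes 1242 could be tested there and 1223 had the same sign. Both comparisons were made against the same Drd2 nuclei, so their overlap is not independent.

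Ebf1, Tac1, Pdyn and Isl1 of the direct pathway separated the sums of Drd1 nuclei from those of Drd2 nuclei without overlap between mice. Within the Drd1 nuclei their levels were uneven, and Ebf1 was at 2.99 to 5.99 CPM in groups 6, 7 and 8 of the grouping of nuclei given further on. Ebf1, a transcription factor needed for the differentiation of direct pathway neurons, had 177, 304 and 371 CPM as the lowest, median and highest mouse in Drd1 nuclei and 1.38, 5.28 and 13.7 CPM in Drd2 nuclei. Its log2 fold change of 5.18 ± 0.16 (SE) was the largest rise among called genes with the same sign in every mouse. Tac1, the precursor of substance P, had 50.7, 82.1 and 118 CPM against 1.44, 3.50 and 7.40 CPM (log2 fold change 4.2 ± 0.13). Pdyn, the precursor of dynorphin, had 19.4, 26.7 and 41.1 CPM against 0.296, 0.878 and 2.26 CPM (4.54 ± 0.19). Isl1, a transcription factor of the direct pathway, had 12.1, 21.2 and 31.9 CPM in Drd1 nuclei and at most 1.42 CPM in Drd2 nuclei. In each of the 11 mice every one of these genes was higher in Drd1 nuclei, whatever the genotype. Of the 10 direct pathway genes on the list 9 were tested and 9 were called higher (6.19% over all genes), and their median log2 fold change was 4.2 against 0.00298 over all genes tested. The smallest rises were those of Sfxn1 (1.38 ± 0.10), Eya1 (1.63 ± 0.13) and the G protein subunit gene Gnb4 (1.92 ± 0.10). The gene not tested was Chrm4, the M4 muscarinic receptor, which had at most 2.11 CPM in Drd1 nuclei and 0 in Drd2 nuclei.

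The other genes with large rises included several that lie near each other. Slc35d3, a transporter of the direct pathway list (chr10:19847916-19851459, 4.65 ± 0.40), lies beside Il20ra, a cytokine receptor subunit (chr10:19712570-19760053, 4.84 ± 0.25). Mdk, the growth factor midkine (chr2:91929805-91932297, minus strand, 4.10 ± 0.20), lies beside Chrm4 (chr2:91927249-91928688, plus strand). The noncoding gene Gm34557 (chr13:53921313-53934788, 4.70 ± 0.40), Sfxn1 (chr13:54071869-54108342) and the histamine receptor gene Hrh2 (chr13:54192129-54236180, 0.88 ± 0.15) lie around Drd1. Lingo2, a leucine-rich repeat protein of neurons, had 1767, 2121 and 2728 CPM against 241 and 443 CPM as the lowest and highest Drd2 value (2.66 ± 0.05). Zfp521 (3.54 ± 0.12), the syntrophin gene Sntg2 (3.38 ± 0.13), the ion channel gene Asic4 (3.32 ± 0.15), the orphan receptor gene Gpr139 (3.02 ± 0.19), Impg1 (3.98 ± 0.19) and the noncoding gene 9330185C12Rik (4.11 ± 0.31) completed the 15 largest.

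Genes of the indirect pathway were much lower in Drd1 nuclei, where the list summed to 123 to 254 CPM against 1272 to 1687 CPM in Drd2 nuclei. Adora2a, an adenosine receptor, had at most 4.09 CPM in Drd1 nuclei and 126, 171 and 191 CPM in Drd2 nuclei. Penk, the precursor of enkephalin, had 2.81, 13.5 and 19.0 CPM against 148, 192 and 252 CPM (log2 fold change -4.09 ± 0.12). Gpr6, an orphan receptor that raises cAMP, was seen as 1 UMI in all Drd1 nuclei and as 511 in Drd2 nuclei, a ratio of 150 per UMI captured with an exact 95% interval of 26.7 to 5924. Of the 10 indirect pathway genes on the list 8 were tested and 8 were called lower (5.15% over all genes), with a median log2 fold change of -4.01. Beside Adora2a (chr10:75316877-75334784) lies Upb1 (chr10:75401115-75441679, -6.07 ± 0.30), and beside Drd2 lies Ttc12 (chr9:49436963-49486225, -2.53 ± 0.46). Other large falls were Grik3, a kainate receptor subunit (-3.94 ± 0.13), Oprd1, the delta opioid receptor that binds enkephalin (-3.48 ± 0.15), the transcription factor gene Sp9 (-3.40 ± 0.22), and Nt5e, the enzyme that makes adenosine outside cells (-2.58 ± 0.16). Adk, adenosine kinase, fell by 2.24 on the log2 scale (SE 0.06), and the serotonin receptor gene Htr7 by 2.46 (SE 0.25). Penk was thus low but above 0 in Drd1 nuclei of all 11 mice, while Adora2a was at 0 in 4 of them. The list was unevenly spread over Drd1 nuclei: in groups 7 and 8 of the grouping given further on (68 and 24 of 916 nuclei) it summed to 1244 and 1194 CPM against 39.9 to 52.0 CPM in the other 6 groups. Ptprm alone gave 940 and 899 CPM of the sums in groups 7 and 8, and was at 21.4 to 37.3 CPM elsewhere. Penk was at 82.3 and 35.4 CPM in groups 7 and 8 and at 2.99 to 14.6 CPM elsewhere.

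**Figure D2:**
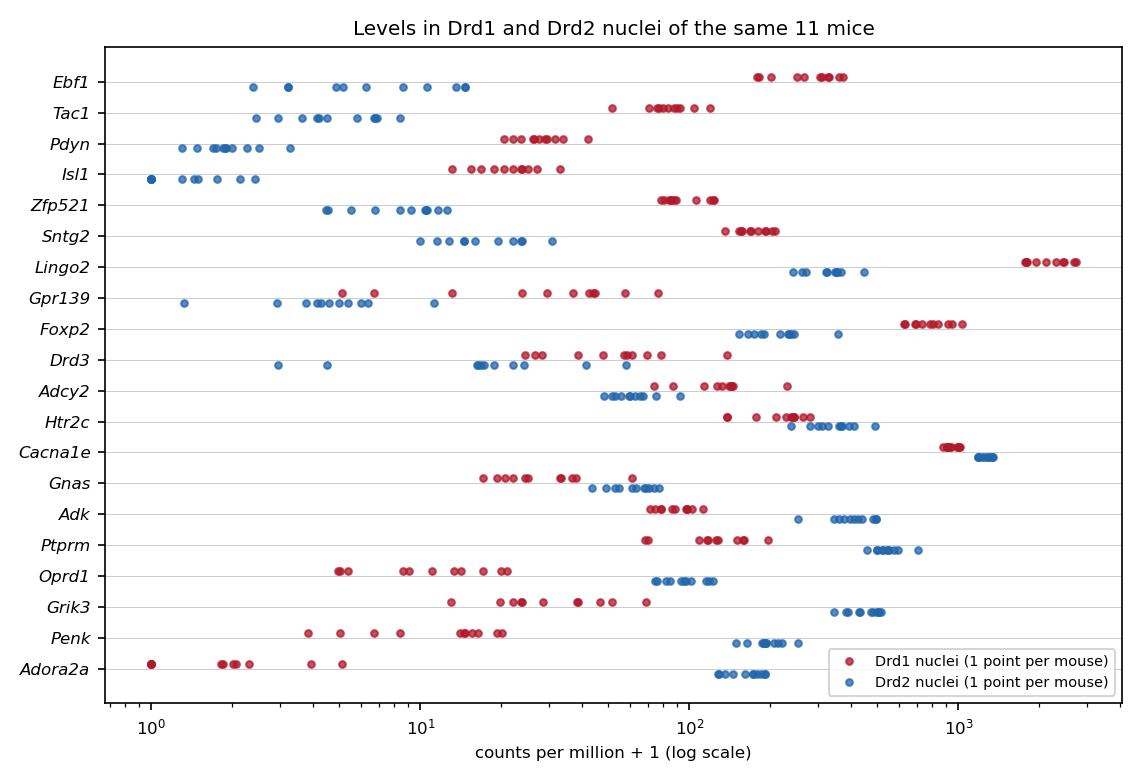
Levels of 20 genes in Drd1 nuclei (red) and Drd2 nuclei (blue) of the same 11 mice, 1 point per mouse, on a log axis of CPM plus 1. Ebf1, Tac1, Pdyn and Isl1 at the top and Penk and Adora2a at the bottom separate the sums per mouse of the 2 types without overlap, while Htr2c, Drd3 and Gnas overlap or lie close.

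Genes shared by both pathways differed less. Of the 20 identity genes of striatal projection neurons 1 was called higher in Drd1 nuclei and 11 lower (6.19% and 5.15% over all genes), with a median log2 fold change of -0.17. The gene called higher was Ppp1r1b, which encodes DARPP-32, the phosphatase inhibitor that dopamine controls (0.20 ± 0.06), and it was not called in the nuclei just outside the limit (-0.10, adjusted p = 0.33). The falls included the transcription factor genes Foxp1 (1208, 1568 and 2022 CPM against 1794, 2081 and 2610 CPM; -0.45 ± 0.03) and Meis2 (-0.36 ± 0.04) and the GABA synthesis gene Gad1 (-0.37 ± 0.05). Foxp1 and Meis2 overlapped between types across mice but differed in the same direction within them. Foxp2, a transcription factor related to Foxp1, went the other way, with 625, 781 and 1030 CPM in Drd1 nuclei and 152, 216 and 354 CPM in Drd2 nuclei (1.82 ± 0.06, higher in 11 of 11 mice). Foxp2 stood on the list of excitatory neuron markers, of which 5 of 10 were tested and 3 called higher (6.19% over all genes), among them Cux2 (0.50 ± 0.11). The other markers on that list, such as Tbr1, Neurod6 and Slc17a6, were too low to test.

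Genes of dopamine and cAMP signalling were called in both directions. Of 48 genes 42 were tested, 5 were called higher and 14 lower (over all genes tested, 6.19% were higher and 5.15% lower), with a median log2 fold change of -0.07. Drd3, the D3 dopamine receptor of the ventral striatum, had 23.5, 56.1 and 137 CPM in Drd1 nuclei and 1.96, 16.2 and 57.3 CPM in Drd2 nuclei (1.54 ± 0.15, higher in 11 of 11 mice). Adcy2, an adenylyl cyclase, was higher (0.95 ± 0.10), as were the G protein regulator genes Rgs2 (0.73 ± 0.13) and Rgs4 (0.49 ± 0.12). The lower genes included a pair of cAMP-degrading enzymes, Pde4b (751, 843 and 1342 CPM against 1233, 1752 and 2343 CPM; -0.93 ± 0.05) and Pde4d (-0.68 ± 0.06). They also included Gnas, the stimulatory G protein subunit (-1.20 ± 0.10), and the striatal G protein subunits Gnal (-0.18 ± 0.03) and Gng7 (-0.32 ± 0.04), which couple the D1 receptor to cyclase. Gnas overlaps an antisense gene, Nespas, that was also lower (-2.88 ± 0.36). Adcy5 itself was not called (-0.06 ± 0.04). The kinase and phosphatase subunits on the list, among them Prkaca, Prkacb, Prkar2b and Ppp3ca, were not called and lay between -0.18 and 0.17.

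Receptors for the other transmitters that reach the striatum were called higher in 4 and lower in 5 of 16 tested, where 6.19% of all genes were higher and 5.15% lower. The higher ones were Oprl1, the nociceptin receptor (1.08 ± 0.25), Tacr1, the receptor of substance P (1.01 ± 0.22), Hrh2, and Oprk1, the dynorphin receptor (25.2, 38.8 and 65.8 CPM against 12, 28.8 and 38.4 CPM; 0.52 ± 0.09). Beside Adora2a and Oprd1 the lower ones were the serotonin receptors Htr2c (136, 237 and 279 CPM against 238, 360 and 487 CPM; -0.73 ± 0.06), Htr4 (-0.57 ± 0.12) and Htr2a (-0.41 ± 0.10). Chrm1, the M1 muscarinic receptor (0.08 ± 0.07), Cnr1, the CB1 cannabinoid receptor (0.15 ± 0.07), and Oprm1, the mu opioid receptor (-0.12 ± 0.11), were not called. The Tacr1 difference was 1.96 in the nuclei just outside the limit. Within the Drd1 nuclei it was at 175 and 180 CPM in groups 7 and 8 of the grouping given further on and at 0 to 4.56 CPM in the other 6 groups. Of the neuropeptide genes 8 of 16 were tested, and beside Tac1 and Pdyn the granin genes Chgb (0.70 ± 0.12), Vgf (0.69 ± 0.11) and Scg2 (0.59 ± 0.16) were called higher and Penk lower.

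Synaptic and channel genes that were called differed in both directions, where 6.19% of all genes tested were called higher and 5.15% lower. Of 32 glutamate receptor and scaffold genes tested 7 were called higher and 7 lower, with a median of 0.00211. The kainate receptor genes Grik2 (0.36 ± 0.03) and Grik4 (0.52 ± 0.09), the AMPA receptor gene Gria4 (0.20 ± 0.04) and the scaffold gene Shank1 (0.59 ± 0.07) were higher. Gria3 (-0.26 ± 0.04), the metabotropic receptor genes Grm5 (-0.21 ± 0.03) and Grm3 (-0.24 ± 0.04) and the scaffold gene Dlg2 (-0.25 ± 0.02) were lower. Of 20 genes of GABA synthesis, transport and receptors 0 were called higher and 7 lower, led by Gabra3 (-0.60 ± 0.11), which was not called just outside the limit (-0.18, adjusted p = 0.072), and Gad1. Of 38 ion channel genes 6 were called higher and 10 lower. The calcium release channel gene Ryr1 (38.2, 78.4 and 123 CPM against 33.9, 47.5 and 58.1 CPM; 0.78 ± 0.08) and the potassium channel gene Kcnb2 (0.52 ± 0.04) were highest above Drd2 nuclei. The potassium channel gene Kcnd3 (-0.56 ± 0.06) and the calcium channel gene Cacna1e (875, 932 and 1010 CPM against 1182, 1274 and 1344 CPM; -0.49 ± 0.03) were lowest, and for Cacna1e the ranges over mice did not overlap.

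Activity-induced genes, which neurons switch on within minutes of strong firing or cAMP signalling, were higher in Drd1 nuclei. Of 22 genes 20 were tested, 13 were called higher and 0 lower (6.19% and 5.15% over all genes), with a median log2 fold change of 1.30 against 0.00298 over all genes tested. Arc, which remodels synapses, had 15, 32.8, 25.8 and 42.3 CPM in Drd1 nuclei of Ikbkb+/+ replicates 1 to 4 and 6.69, 18.9, 9.67 and 16.8 CPM in their Drd2 nuclei. It had 21.0, 27.0 and 74.0 CPM against 4.84, 7.73 and 10.3 CPM in Ikbkb+/+;P301S+, 3.23 and 73.8 against 1.76 and 6.98 CPM in Ikbkb-/-;P301S+, and 66.8 and 12.1 against 7.01 and 3.36 CPM in IkbkbCA;P301S+. Arc was thus higher in Drd1 nuclei in 11 of 11 mice (log2 fold change 2.09 ± 0.21), while its level differed widely between mice of a genotype. Ikbkb-/-;P301S+ replicate 1 had the lowest levels of Arc, Junb and Egr1 in Drd1 nuclei, and replicate 2 of the same group the highest level of Junb.

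Most of the other immediate early genes tested were called higher as well. Junb, a subunit of the AP-1 transcription factor, had 6.46, 48.7 and 84.4 CPM against 2.56, 8.48 and 31.0 CPM as the lowest, median and highest mouse (2.15 ± 0.23, 11 of 11 mice). Egr1, a zinc finger transcription factor, had 24.2, 83.7 and 137 CPM against 8.20, 22.3 and 45.0 CPM (1.75 ± 0.14, 11 of 11 mice). Egr4 had 2.86, 18.6 and 33.6 CPM against 0.585, 4.00 and 8.29 CPM (2.11 ± 0.26, 10 of 11 mice). The exception for Egr4 was Ikbkb+/+ replicate 3, the mouse with 34 Drd1 nuclei. Egr2 (2.01 ± 0.44), Btg2 (1.62 ± 0.27), Arl4d (1.58 ± 0.30), Fosb (1.44 ± 0.38), Fos (1.43 ± 0.33), the phosphatase gene Dusp1 (1.37 ± 0.25), Egr3 (1.22 ± 0.17), Npas4 (0.80 ± 0.18) and Homer1 (0.22 ± 0.05) were also called. Nr4a1 (0.35 ± 0.14), Nr4a2 (0.73 ± 0.34) and Bdnf (-0.13 ± 0.39) were not.

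The nuclei just outside the Drd1 limit were set against the same Drd2 nuclei. There 13 of the 20 genes were called higher, against 9.84% of all genes tested, and 0 lower, with a median of 0.96. Arc was at 1.76, Junb at 1.84 and Egr1 at 1.48 on the log2 scale there, while Fosb (0.43, adjusted p = 0.4) and Homer1 (-0.01, adjusted p = 0.91) were not called. Pooled over mice, Arc was at 38.9 CPM in nuclei with exactly 2 Drd1 UMIs, at 30.9 CPM in those with exactly 1, and at 8.57 CPM in Drd2 nuclei. Some stress genes moved with them. In Drd1 against Drd2 nuclei 7 of 13 tested were called higher, where 6.19% of all genes were, and 0 lower (median 0.37), with Gadd45g (1.32 ± 0.34) and Gadd45b (1.20 ± 0.30) ahead of the chaperones Hspa8 (0.59 ± 0.12), Hsp90aa1 (0.55 ± 0.14) and Hspa5 (0.37 ± 0.12). Drd1 nuclei were also deeper than Drd2 nuclei, with medians of 11065 and 9972 UMIs. The part of depth or of stress genes in this difference was not tested.

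**Figure D3:**
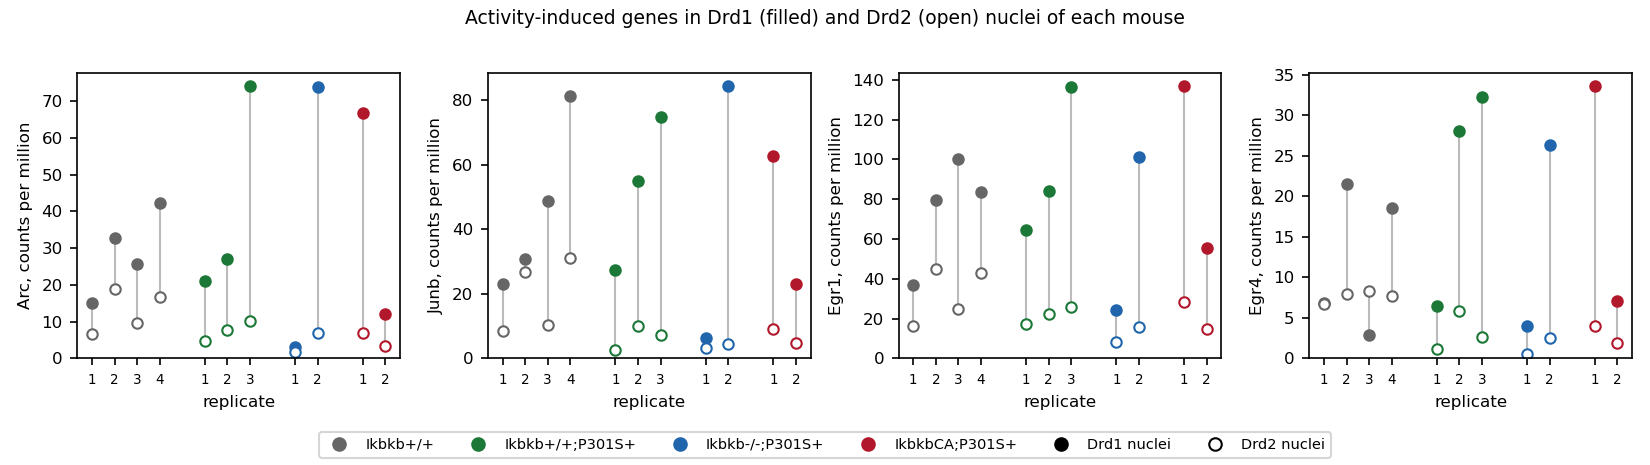
Arc, Junb, Egr1 and Egr4 in CPM (vertical axes) in Drd1 nuclei (filled) and Drd2 nuclei (open) of each mouse, by genotype (colour) and replicate, with a line joining the 2 values of a mouse. Drd1 nuclei are higher in 11 of 11 mice for the first 3 genes and in 10 of 11 for Egr4, and Ikbkb-/-;P301S+ replicate 1 has the lowest Arc, 3.23 CPM.

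Several of these genes carry the core of the cAMP response element in their promoters. The letters TGACGT were searched on both strands (ACGTCA on the other strand, which overlaps TGACGT where the full palindrome is present) in the 250 bases before the RefSeq gene start, build GRCm38.p6. They were found before 11 of the 17 activity-induced genes with an entry in the promoter table, and before 1971 of all 27025 genes (7.29%). Of the 13 genes called higher 10 had an entry and 8 held the motif. Among direct pathway genes 1 of 7 with an entry held it. Stretches around a match follow for 5 called genes, 5′ to 3′ on the strand of the gene, because these genes moved together without sharing the direct pathway label. A single match is in capitals in each, and the Npas4 stretch holds a further TGACGT in lower case. A match is a description of these letters only. The list holds genes that firing or cAMP signalling induces, so its share of matches describes the list and not Drd1 nuclei. The part of the motif in the rise in Drd1 nuclei was not tested.
Fos, chr12:85473784-85473869, plus strand: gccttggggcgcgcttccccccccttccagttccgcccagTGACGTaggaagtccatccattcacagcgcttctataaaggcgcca
Egr4, chr6:85513654-85513739, minus strand: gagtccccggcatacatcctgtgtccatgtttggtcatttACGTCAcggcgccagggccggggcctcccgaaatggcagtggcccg
Btg2, chr1:134079276-134079361, minus strand: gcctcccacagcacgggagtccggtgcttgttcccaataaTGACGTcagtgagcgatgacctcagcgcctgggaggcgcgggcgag
Dusp1, chr17:26508570-26508655, minus strand: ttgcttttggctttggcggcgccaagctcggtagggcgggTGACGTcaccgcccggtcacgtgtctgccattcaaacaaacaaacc
Npas4, chr19:4990106-4990191, minus strand: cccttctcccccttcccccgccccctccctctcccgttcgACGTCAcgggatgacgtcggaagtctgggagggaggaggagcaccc

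Genes of tau biology and NF-κB did not stand out from the 11.3% called over all genes. Of 20 tau and tau kinase genes tested 2 were called higher, the microtubule protein gene Map1b (0.40 ± 0.03) and the phosphatase subunit gene Ppp2r2b (0.14 ± 0.03), and 1 lower, the tau kinase gene Mark1 (-0.29 ± 0.04). Mouse Mapt, which encodes tau, had 286, 377 and 433 CPM in Drd1 nuclei and 314, 339 and 399 CPM in Drd2 nuclei (0.04 ± 0.04). Of 12 NF-κB pathway genes tested 0 were called, with 1 at an unadjusted p under 0.05. No gene of the oligodendrocyte, astrocyte, microglial, oligodendrocyte precursor or interneuron marker lists was called (0 of 8, 4, 5, 1 and 3 tested). Just outside the limit 4 of 6 interneuron markers and 1 of 5 microglial ones were called higher, where 9.84% of all genes tested were.

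The Drd1 nuclei were not uniform. Genes of striatal compartments were read from the same comparison, again against 6.19% of all genes called higher and 5.15% lower. Of 7 striosome genes 2 were called higher, Sema5b (0.64 ± 0.07) and Khdrbs3 (0.40 ± 0.05), and 1 lower, Bach2 (-0.25 ± 0.07). Of 6 matrix genes 0 were called higher and 5 lower, including Epha4, Calb1 and Rasgrp2, between -0.32 and -0.18. Of 6 genes of eccentric projection neurons, a minority type that carries Drd1 without most direct pathway genes, 5 were called higher, among them the RNA editing gene Adarb2 (2.06 ± 0.11) and the collagen gene Col11a1 (1.84 ± 0.17).

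The 916 Drd1 nuclei that were not called doublets were grouped by their own expression into 8 groups, which are described without a test, since the genes that formed the groups cannot test them. Group 5 (102 nuclei) was striosome-like in part, with Kremen1 at 76.6 CPM, Sema5b at 315, Bach2 at 388 and Khdrbs3 at 316, and its Tac1 level of 175 CPM was the highest of the groups. Sema5b, Bach2 and Khdrbs3 were higher still in group 7, at 805, 456 and 488 CPM, while Kremen1 was at 12 CPM there. Oprm1 (114 against 103 CPM) and Lypd1 (89.8 against 44.7 CPM) were also higher in group 7, and Rasgrp1 in group 6 (251 against 224 CPM). Of the striosome list only Kremen1 was highest in group 5. The list summed to 1468 CPM there and to 2152 CPM in group 7. The matrix list was not low in group 5, at 1170 CPM, where the groups lay between 589 and 1614 CPM. Group 7 (68 nuclei) was eccentric-like, with Casz1 at 254 CPM, Col11a1 at 208, Tshz1 at 413 and Adarb2 at 3432, and with Ebf1 at 5.99 CPM. Its leading genes, Ankfn1 and Alk among them, also held Ptprm and Plxdc1 of the indirect pathway list. That list summed to 1244 CPM in group 7, against 290 CPM for the direct pathway list. Adarb2 and Col11a1 were also high in group 8, at 2588 and 153 CPM, while Casz1 and Tshz1 were at 23.6 and 44.2 CPM there. The eccentric list summed to 4725 CPM in group 7, 2915 CPM in group 8 and at most 1099 CPM in the others. Group 6 (97 nuclei) was led by Sipa1l2, Nrp2, Fign and Gfra1 and shared low Ebf1 (2.99 CPM) and raised Otof (281 CPM) with the eccentric-like group. Group 1 (205 nuclei) was led by Gpr139, Il1rapl2, Meis1 and Cnr1 (540 CPM), and group 3 (135 nuclei) by March1, Npsr1, Gm32647 and Rgs6, with Drd3 at 149 CPM. Drd3 was also at 124 and 105 CPM in groups 6 and 7, and at 2.12 to 31.5 CPM in the rest.

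Groups 1, 2, 3, 4, 6 and 8 stayed without a name. Group 2 (166 nuclei) was led by Gm6260 and had the highest Ebf1 level, 514 CPM. Group 4 (119 nuclei) was led by the activity-induced genes Egr3, Nr4a3 and Egr2, whose list summed to 1379 CPM there against 306 to 1207 CPM in the other groups. Group 8 (24 nuclei) was led by Kcnmb2, Sox6, Nxph1 and Nos1, genes of interneurons, with Tac1 at 5.89 CPM and identity genes at 6021 CPM in sum, the lowest of all groups. Its interneuron markers summed to 212 CPM, against 10.5 to 31.3 CPM in the other groups.

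The mice contributed unequally to these groups. Group 3 held 70% of the nuclei of Ikbkb+/+ replicate 3, where 30 nuclei were grouped, and at most 26.4% elsewhere. Group 1 held 39.9% of IkbkbCA;P301S+ replicate 1 and 9.23% of replicate 2 of the same genotype, where group 6 held 55.4% against 0.985% in replicate 1. Group 2 held 41.8% of Ikbkb+/+;P301S+ replicate 3. Group 5, striosome-like only in part, lay between 4.62% and 18.2% of a mouse, and the eccentric-like group 7 between 3.08% and 10.6%. Mice of a genotype thus differed in the mixture of Drd1 nuclei they yielded, and the sums compared between genotypes below carry that difference.

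**Figure D4:**
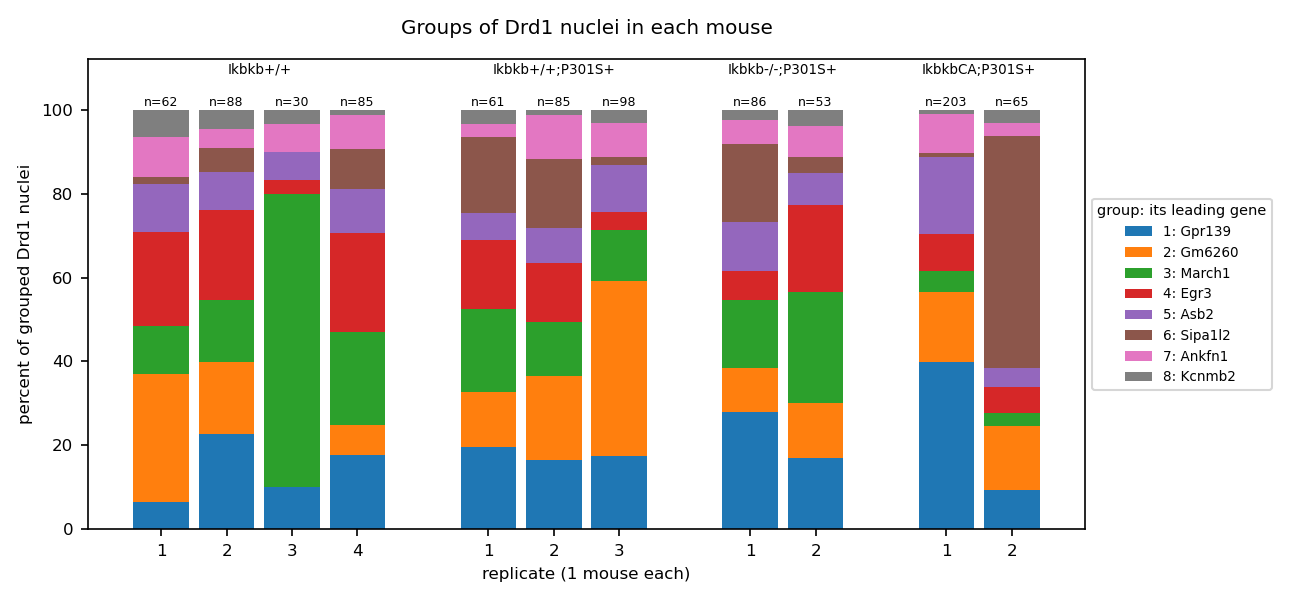
Percent of grouped Drd1 nuclei in each of 8 groups (colours, named by their leading gene) for each mouse, by genotype and replicate, with the number of grouped nuclei above each bar. Group 3 fills 70% of Ikbkb+/+ replicate 3 and group 6 fills 55.4% of IkbkbCA;P301S+ replicate 2.

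Genotypes were compared on the UMIs summed over the Drd1 nuclei of each mouse, in edgeR with all 11 mice in the fit and 9148 genes tested. The knockout and active IKKβ contrasts set Ikbkb-/-;P301S+ and IkbkbCA;P301S+ mice against Ikbkb+/+;P301S+ mice, and the P301S contrast sets those against Ikbkb+/+ controls. The biological coefficient of variation was 15.5%. The deletion was made in other cells, so the targeted gene does not check the labels here: Ikbkb was at 25.4 to 48.4 CPM in Drd1 nuclei of all mice, 33.1 and 41.1 CPM in the Ikbkb-/-;P301S+ mice. Prnp, the mouse gene whose promoter drives the transgene, was at 0 to 1 CPM, and human tau is not told apart in these counts. In P301S mice against controls 1 gene was called (0.0109% of the genes tested), and over all 7 tau transgene carriers 1 gene (0.0109%). It was the same gene, Gm43049. In the knockout contrast 0 were called (0%) and in the active IKKβ contrast 0 (0%). At an unadjusted p under 0.05 there were 310, 434, 382 and 327 of the 9148 genes in this order, and DESeq2's test called 0 in each contrast. Each of these is a share under 0.05, the share that would be reached where no gene differs.

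Gm43049, a long intergenic noncoding RNA (chr3:140692038-140760704, minus strand), separated mice with and without the tau transgene. In Drd1 nuclei it was at 0, 0, 0 and 0.845 CPM in Ikbkb+/+ replicates 1 to 4 and at 16.1, 15 and 11 CPM in Ikbkb+/+;P301S+ mice. It was at 9.70 and 6.33 CPM in Ikbkb-/-;P301S+ mice and at 12.2 and 8.07 CPM in IkbkbCA;P301S+ mice. Every carrier was above every control. The log2 fold change was 5.05 ± 0.71 between Ikbkb+/+;P301S+ and Ikbkb+/+ (adjusted p = 0.0175) and 4.74 ± 0.67 between all carriers and Ikbkb+/+ (adjusted p = 0.0175). As counts, 1 UMI in the controls stood against 40 in Ikbkb+/+;P301S+ and 94 in all carriers, ratios of 46.0 (exact 95% interval 7.79 to 1860) and 37.6 (6.59 to 1502) after allowing for depth.

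Other nuclei of the same mice showed the same separation. In Drd2 nuclei, 1 UMI in the controls stood against 152 and 374. Just outside the Drd1 limit 0 stood against 94 and 161, with exact 95% lower limits of the ratio of 23.3 and 17.5. With those nuclei added to the Drd1 nuclei the adjusted p was 2.7e-05 and 5.05e-05. In Drd1 nuclei alone the counts were few, and the call rested on single mice. For P301S against controls the adjusted p was 0.113, 0.0841, 0.0595 and 0.13 without Ikbkb+/+ replicates 1 to 4, and 0.101 and 0.142 without Ikbkb+/+;P301S+ replicates 1 and 2. For all carriers the same 6 mice gave 0.137, 0.221, 0.0662, 0.16, 0.0667 and 0.0754. Over all carriers it was also 0.0511 with age as a covariate and 0.0504 without called doublets. With mice of the same title number within a breeding line as a block, it was 0.322 for P301S against controls and 0.274 over all carriers. The log2 fold change stayed between 4.32 and 6.87 over these settings.

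Beyond Gm43049 the genes with the smallest p did not pass. In P301S against controls these were Cpne9 (1.60 ± 0.40), Gm48091 (1.05 ± 0.27), Sorcs3 (-0.75 ± 0.19), Suds3 (0.82 ± 0.22) and Gipc2 (0.77 ± 0.21), each with an adjusted p of 1. Cpne9, a calcium-binding copine, was at 2.73, 14.1, 11.4 and 6.76 CPM in the controls and at 25.8, 18.0 and 34.5 CPM in Ikbkb+/+;P301S+, without overlap. It was also above every control in the other 4 carriers, at 16.1 to 33.2 CPM (all carriers 1.59 ± 0.35, adjusted p = 1). In Drd2 nuclei its difference was 0.20 ± 0.22. Slc16a6, a transporter gene, was at 16.4 to 27.9 CPM in the controls and at 35.3 to 49.3 CPM in the carriers (0.83 ± 0.19, adjusted p = 1). Grm3 (-0.44 ± 0.10), Ppp1cc (0.57 ± 0.14) and Zbtb20 (-0.55 ± 0.14) had the next smallest p over all carriers.

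For the knockout, the smallest p belonged to C2cd2, at 63.0, 53.1 and 73.3 CPM in Ikbkb+/+;P301S+ and 23.4 and 28.5 CPM in Ikbkb-/-;P301S+ (-1.30 ± 0.25, adjusted p = 0.638). Npsr1, the neuropeptide S receptor, was at 3.23, 1 and 3.67 CPM against 10.5 and 48.5 CPM (3.35 ± 0.68, adjusted p = 0.638). It was called without Ikbkb-/-;P301S+ replicate 1 (4.12, adjusted p = 0.0139), which leaves replicate 2 alone in its group, and it is a leading gene of group 3, which held 16.3% of replicate 1 and 26.4% of replicate 2. Acaa1a (1.91 ± 0.41), Hsf2 (-1.24 ± 0.31) and Gm26904 (-0.78 ± 0.19) followed with an adjusted p between 0.661 and 0.997.

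For active IKKβ, Tbc1d30 had the smallest p, at 90.4, 87.1 and 96.0 CPM in Ikbkb+/+;P301S+ and 162 and 144 CPM in IkbkbCA;P301S+ (0.75 ± 0.15, adjusted p = 1). Its level in Ikbkb+/+ was 111 to 130 CPM. Sema5a (-1.20 ± 0.27) and Galnt7 (0.81 ± 0.21) did not pass either. Gm16867 and Loxl2 (-7.92 ± 1.77 and -4.94 ± 1.24, adjusted p = 1), neighbouring genes of chromosome 14, were at or near 0 in 4 of the 5 mice of the IkbkbCA line. Gm16867 was at 0 in Drd1 nuclei of Ikbkb+/+ replicates 3 and 4 and of both IkbkbCA;P301S+ mice, and at 24.0 to 54.8 CPM in the other 7 mice, among them Ikbkb+/+;P301S+ replicate 3, the fifth mouse of that line. Without IkbkbCA;P301S+ replicate 1 only replicate 2 was left in its group, so the spread came from the other groups alone. The log2 fold changes were then 2.20 for Nrp2, 2.77 for Sipa1l2, 1.37 for Cux2 and 1.82 for Col11a1. The first 3 are leading genes of group 6, the group that held 55.4% of the remaining mouse. Without replicate 2 the log2 fold change of Pard3b, a leading gene of the same group, was -2.08.

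None of the listed genes that could be tested for genotype in Drd1 nuclei was called in any of the 4 contrasts. Of the 7 endothelial and mural markers 0 could be tested, of the 5 oligodendrocyte precursor markers 1 and of the 8 interneuron markers 2. The activity-induced genes had a median log2 fold change of 0.39 in P301S mice, -0.42 in the knockout, 0.01 with active IKKβ and 0.26 over all carriers (16 tested), where all genes tested had medians between -0.00786 and 0.00241. The direct pathway genes had medians of 0.10, -0.21, -0.17 and -0.02 (8 tested), and the tau and tau kinase genes 0.01, 0.07, 0.13 and 0.06 (20 tested). The dopamine and cAMP signalling genes lay between 0.00282 and 0.04 (44 tested). Oligodendrocyte markers had medians of 0.45, 0.43, -0.07 and 0.55 (7 tested), with 7 higher and 3 at an unadjusted p under 0.05 over all carriers, and their sum was highest in Ikbkb-/-;P301S+ replicate 2, 505 CPM. Astrocyte markers had medians of -0.83, -0.34, -1.10 and -0.98 (3 tested), with 2 at an unadjusted p under 0.05 over all carriers, and their sum was highest in Ikbkb+/+ replicate 4, 510 CPM. Microglial markers had medians of -0.23, 0.33, 0.22 and -0.14 (4 tested). Over all carriers, 434 of all 9148 genes tested were at an unadjusted p under 0.05.

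Whether a genotype difference in Drd1 nuclei departed from that in the Drd2 nuclei of the same mice was tested as an interaction over 11005 genes. Each of the P301S, knockout and active IKKβ contrasts called 1 gene (0.00909% of those tested), and the contrast over all carriers called 0 (0%, with 523 at an unadjusted p under 0.05). Sorcs3 (chr19:48206025-48805505), a sorting receptor of the postsynapse, was called in the first 2. In Drd1 nuclei it was at 222, 309, 389 and 343 CPM in Ikbkb+/+ and at 170, 209 and 180 CPM in Ikbkb+/+;P301S+. In Drd2 nuclei the same mice had 430, 381, 546 and 432 CPM and 464, 508 and 432 CPM. Its level was therefore below the controls in Drd1 nuclei of the Ikbkb+/+;P301S+ mice and within their range in Drd2 nuclei, and the difference of the 2 log2 fold changes was -0.82 ± 0.13 (adjusted p = 0.0283). It was -0.64 (adjusted p = 0.316) with the nuclei just outside the limit. The adjusted p was 0.227 and 0.107 without Ikbkb+/+ replicates 2 and 4, and 0.353, 0.306 and 0.102 without Ikbkb+/+;P301S+ replicates 1 to 3.

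In the knockout, Sorcs3 was at 223 and 316 CPM in Drd1 nuclei and at 295 and 371 CPM in Drd2 nuclei, so that the levels of the 2 types drew closer. The difference of log2 fold changes from Ikbkb+/+;P301S+ was 1.01 ± 0.16 (adjusted p = 0.0152), and 1.04 (adjusted p = 0.00866) with the nuclei just outside the limit. This contrast shares the Ikbkb+/+;P301S+ mice with the one before. The adjusted p was 0.129, 0.123 and 0.0802 without Ikbkb+/+;P301S+ replicates 1 to 3 and 0.738 without Ikbkb-/-;P301S+ replicate 2. Within Drd1 nuclei alone Sorcs3 did not pass in either contrast (-0.75 and 0.52 on the log2 scale, adjusted p = 1 and 0.997).

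Col11a1 (chr3:114030540-114220718), a collagen chain and a marker of eccentric projection neurons, was called for active IKKβ (1.86 ± 0.31, adjusted p = 0.0413). In Drd1 nuclei it was at 29.1, 27.0 and 31.5 CPM in Ikbkb+/+;P301S+ and at 34.5 and 104 CPM in IkbkbCA;P301S+, and in Drd2 nuclei at 11.7, 13.8 and 10.1 CPM and at 3.25 and 13.4 CPM. The high value belonged to IkbkbCA;P301S+ replicate 2, the mouse with 55.4% of its nuclei in group 6, where Col11a1 was at 87.8 CPM. The adjusted p was 0.0615 and 0.0895 without IkbkbCA;P301S+ replicates 1 and 2, 0.0555 and 0.0598 without Ikbkb+/+ replicates 1 and 3, 0.126 and 0.461 without Ikbkb+/+;P301S+ replicates 1 and 2, and 0.0501 without Ikbkb-/-;P301S+ replicate 1. It was 0.108 without called doublets, where the difference was 1.95. With the nuclei just outside the limit the difference was 0.77 (adjusted p = 1).

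Over all carriers the smallest adjusted p, 0.0531, was shared by the activity-induced genes Junb, Arc and Egr1. In Drd1 nuclei Arc averaged 29.0 CPM ± 11.5 (SD, n = 4) in Ikbkb+/+ and 39.7 CPM ± 30.8 (SD, n = 7) in carriers, and in Drd2 nuclei it was at 6.69 to 18.9 CPM in Ikbkb+/+ and at 1.76 to 10.3 CPM in carriers. The difference of log2 fold changes was 1.62 ± 0.30 for Arc, 1.85 ± 0.34 for Junb and 1.09 ± 0.20 for Egr1, made up of small differences in Drd1 nuclei (0.44, 0.05 and 0.22) and negative ones in Drd2 nuclei (-1.19, -1.77 and -0.85), none of which passed on its own. With the nuclei just outside the limit Arc was called (1.58 ± 0.25, adjusted p = 0.0354) and Junb (adjusted p = 0.0873) and Egr1 (adjusted p = 0.375) were not. Arc, Junb and Egr1 were higher in Drd1 than in Drd2 nuclei in all 4 control mice as well.

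**Figure D5:**
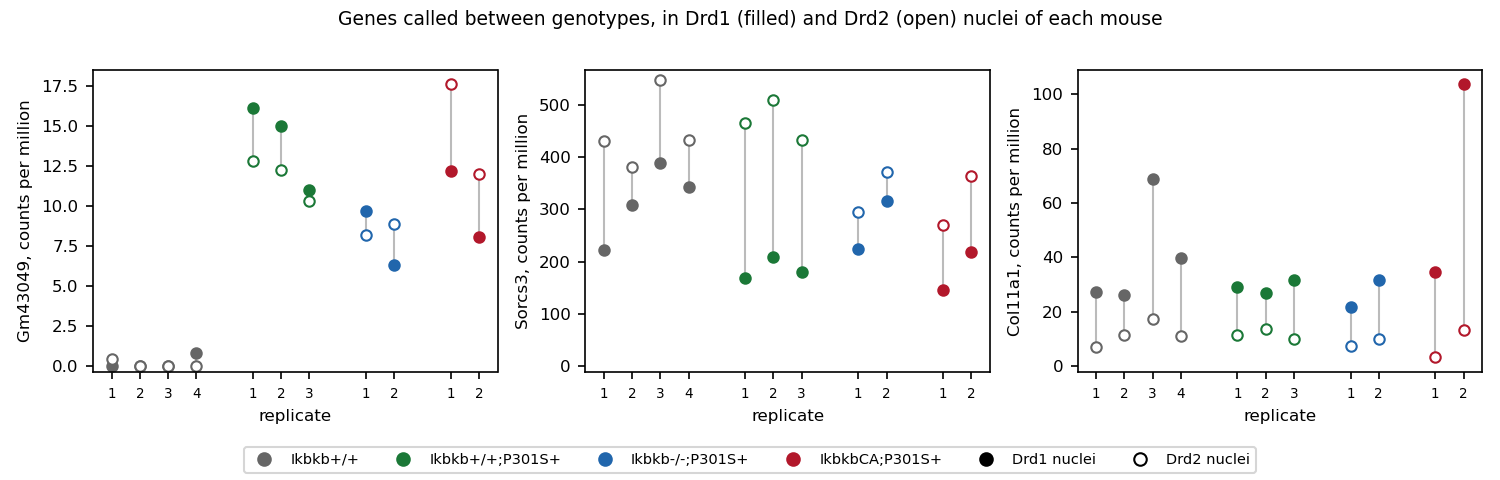
Gm43049, Sorcs3 and Col11a1 in CPM (vertical axes) in Drd1 nuclei (filled) and Drd2 nuclei (open) of each mouse, by genotype (colour) and replicate, with a line joining the 2 values of a mouse. Gm43049 is at or near 0 in all 4 Ikbkb+/+ mice and at 6.33 to 16.1 in Drd1 nuclei of carriers, and Col11a1 is highest, 104, in IkbkbCA;P301S+ replicate 2.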

How the data were processed

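The authors aligned the reads of Chromium 3′ libraries with Cell Ranger 3.1.0 to mm10, unspliced transcripts included, and deposited raw UMI counts per gene and barcode for each of 11 mice. No values were normalised before deposit. The submitters' processing notes also name Seurat 3.0. Nuclei had been sorted by DAPI.

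Nuclei were selected as the report states, and doublets were called per library with Scrublet (scanpy 1.11.5) but kept in the main analysis. Counts were summed per mouse, since nuclei of a mouse are not replicates. Genes passing filterByExpr were tested with edgeR 4.0.16 (R 4.3.3, TMM) with 1 term per genotype, or with the mouse as a block for Drd1 against Drd2 nuclei and the interactions. Benjamini-Hochberg adjustment ran over all genes tested. The script was tested on simulated data. Shares were compared by exact permutation tests. Drd1 nuclei were grouped from 1500 variable genes, 15 principal components and 15 neighbours at a resolution of 0.6.

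The members and gene lists were chosen with earlier results of these data known, and 355 of 356 list genes were found. Named genes were the 15 largest differences each way with the same sign in every mouse (Drd1 against Drd2), the called genes of each genotype contrast and interaction, and the 5 smallest p where fewer than 5 were called. Other genes named come from the gene lists or lead a group of nuclei. The mice of a group are separate animals. Summed depth was 353179 to 2383317 UMIs for Drd1 nuclei, and intervals cover counting error only. Reads of introns are counted, so levels were not compared between genes. Alternatives were other size factors, DESeq2 1.42.0, no filter, age or breeding line as a covariate, the title number within a breeding line as a replicate block, stricter or wider selections, doublets left out, thinning to 5000 UMIs, and each mouse left out. A few genes that met the rule or stood on a list are not reported here.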

Additional observations from a re-analysis of the deposited data

Results flagged for a closer look

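Among Ikbkb+/+ mice, replicate 4 stood apart from the other 3 in Drd1 nuclei for 4 of 49 values tested for a sample far from the rest, and chance gives about 1 in 20. Gm43049 was at 0.845 CPM there, a single UMI, and at 0 in the others, so that any count would have stood apart and nothing is read from it. Cx3cr1 (11 CPM) and Csf1r (16.1 CPM), markers of microglia, and Aqp4 (9.30 CPM), a marker of astrocytes, were highest in the same mouse. The astrocyte list summed to 510 CPM in it, and its part in the comparisons was not tested.

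Genotype differences in Drd1 nuclei departed from those in Drd2 nuclei, by the test of the difference itself, for Sorcs3 in P301S mice against controls (-0.82 on the log2 scale), for Sorcs3 in the knockout (1.01) and for Col11a1 with active IKKβ (1.86). These calls were not stable. The first was lost with the nuclei just outside the Drd1 limit (adjusted p = 0.316) and without any 1 of the 3 Ikbkb+/+;P301S+ mice (0.102 to 0.353), and the second likewise without any 1 of those mice (0.0802 to 0.129). The third was lost without called doublets (0.108) and with the nuclei just outside the limit (1).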

How the results depend on the processing

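The counts of called genes depended on the filter and on which nuclei were taken. Without a filter on low counts the P301S, knockout, active IKKβ and carrier contrasts called 24, 17, 28 and 51 genes. The P301S contrast called 0 with the replicate block, with Drd1 at 3 or more and Drd2 at 0, and with DESeq2's test. The carrier contrast called 0 in those settings, with age as a covariate and without called doublets. Drd1 against Drd2 nuclei called 586 genes in the stricter nuclei, which are fewer (293), and 2167 in nuclei with exactly 1 Drd1 UMI. In those nuclei the interactions called 0 (P301S), 4 (knockout) and 1 (carriers), and without called doublets 0 (active IKKβ) and 1 (carriers). Thinned to 5000 UMIs, the share of all nuclei turned to -0.216 points in the knockout, and the share of Drd1 and Drd2 nuclei to 0.646 (P301S), -1.73 (knockout) and 0.709 (carriers). The cause of these changes was not tested.

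With each mouse left out in turn the calls ranged from 0 to 1 (P301S, knockout and carriers), 0 to 17 (active IKKβ), 1060 to 1233 (Drd1 against Drd2), and 0 to 3, 0 to 3, 0 to 37 and 0 to 8 in the interactions in the order P301S, knockout, active IKKβ and carriers. The share of all nuclei ranged from -0.088 to 0.159, -0.0434 to 0.193, -0.114 to 1.20 and 0.0494 to 0.311 points in that order, and the share of Drd1 and Drd2 nuclei from -6.88 to -2.46, 2.78 to 7.52, 3.68 to 12.6 and -1.80 to 0.794. The replicate block joined mice with the same title number within a breeding line, which need not have the same replicate number here. The deviations of such mice correlated between -0.0813 and 0.0698 over 10 pairs, so the numbers were not taken as a pairing. With the block, Gm43049 had a log2 fold change of 4.93 (adjusted p = 0.322) in P301S mice and 4.66 (adjusted p = 0.274) over carriers. Among the named genes of all comparisons together, 901 values under other settings kept direction and side of the threshold, 37 lost the call, 11 gained it and 0 turned. The 901 include all 472 values for Drd1 against Drd2. The 37 and the 11 therefore belong to the genotype contrasts and the interactions. The named genes of Drd1 against Drd2 were chosen as large called differences with the same sign in every mouse. Their stability was thus largely set by that choice. In the genotype contrasts most named genes were not called, and a gene that stayed uncalled counts among the 901. Groups of 2 mice, and 34 Drd1 nuclei in Ikbkb+/+ replicate 3, limit what the genotype contrasts could show. A group of 2 with a mouse left out has no spread of its own.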
